A study of Homo sapiens with 4 samples.

Results

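Cohesin and CTCF peaks that lie at starts of long non-coding RNA (lncRNA) genes, far from protein-coding promoters, were described in the HG00731 lymphoblastoid cell line (LCL), a B lymphocyte culture immortalised with Epstein-Barr virus. A peak was a member if it lay within 1 kb of a transcript start of a lncRNA gene and over 5 kb from every protein-coding transcript start in GENCODE release 44 (hg38). On chromosomes 1 to 22 the rule found 3143 of 94628 SMC1 peaks and 1951 of 61417 CTCF peaks. SMC1 FA-EGS HiChIP, in which chromatin was fixed with formaldehyde (FA) and then with EGS, and CTCF HiChIP, in which formaldehyde alone was used, were each made in 2 biological replicates of this line. HiChIP joins proximity ligation with immunoprecipitation, so that 1 library gives both peaks of the captured protein and loops between distant bins. Both replicates of a target were pooled before peaks and loops were called, so each value below stands for 1 pooled list, has no replicate spread and allows no test between targets or positions. Fixation and target cannot be told apart. The label LCL was not checked against marker genes, since the lists hold no RNA levels.

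SMC1 is a core subunit of cohesin, the ring-shaped complex that extrudes chromatin loops, and CTCF is the zinc finger protein that halts cohesin at sites where its asymmetric motif faces the loop. Most lncRNA genes are transcribed by RNA polymerase II, and the RNAs of many, though not all, are spliced. They encode no long protein, and many of them share features of enhancers. In B lymphocytes some of them host microRNAs, such as MIR155HG and MIR17HG, and others lie beside genes that govern growth and survival of the cell.

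The sequences below show what stands at the strongest and the most connected members. Each was read from hg38 and is 99 bases long, 5′ to 3′ on the strand of the best hit of a 19-base CTCF matrix, with the hit in capitals. The matrix was learned from the 3000 CTCF summits with the highest -log10 q-value that were not members, and its consensus was NNGCCACNAGGGGGCGCNN. ENSG00000289881, ENSG00000254510 and ENSG00000259003 were among the members with the highest peaks, LINC02574 had, for each target in the loop list with its own label, the loop to a coding promoter with the most read pairs, and DIAPH1-AS1 was joined to the most coding genes. LINC00926 and MIR17HG come from the list of B lymphocyte lncRNAs.
ENSG00000289881, chr1:84620804-84620902, reverse strand: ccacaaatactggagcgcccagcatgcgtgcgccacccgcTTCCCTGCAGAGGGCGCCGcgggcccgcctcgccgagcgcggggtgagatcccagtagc
ENSG00000254510, chr11:66408588-66408686, forward strand: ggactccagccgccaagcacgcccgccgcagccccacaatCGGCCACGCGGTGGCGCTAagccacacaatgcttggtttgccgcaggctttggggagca
ENSG00000259003, chr14:22557308-22557406, forward strand: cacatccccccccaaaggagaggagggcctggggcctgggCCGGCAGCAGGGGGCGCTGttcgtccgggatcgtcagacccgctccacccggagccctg
LINC02574, chr1:27663290-27663388, reverse strand: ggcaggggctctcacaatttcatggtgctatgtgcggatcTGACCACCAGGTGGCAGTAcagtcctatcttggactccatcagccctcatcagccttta
DIAPH1-AS1, chr5:141557990-141558088, reverse strand: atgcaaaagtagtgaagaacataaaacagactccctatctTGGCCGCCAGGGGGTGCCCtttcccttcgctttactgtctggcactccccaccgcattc
LINC00926, chr15:57306758-57306856, reverse strand: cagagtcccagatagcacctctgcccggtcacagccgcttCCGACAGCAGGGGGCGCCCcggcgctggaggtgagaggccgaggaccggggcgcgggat
MIR17HG, chr13:91348405-91348503, forward strand: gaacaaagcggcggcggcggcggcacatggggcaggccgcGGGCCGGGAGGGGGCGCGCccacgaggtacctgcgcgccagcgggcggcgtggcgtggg
The hits scored from 17.3 bits at ENSG00000254510 to 20 bits at LINC02574, against a minimum of 11. They matched 10 to 12 of the 14 consensus letters that are not N.

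A member can also stand on a promoter without a CTCF peak. The SMC1 peak at DLEU2, a lncRNA gene of the 13q14 region that is often deleted in chronic lymphocytic leukaemia, lay at chr13:50125209-50125928, with its summit 23 bp downstream of the nearest GENCODE start. It held the whole 300 bases of the RefSeq promoter (GRCh38.p14), shown with the best hit of the matrix in capitals.
DLEU2 promoter, chr13:50125492-50125791, reverse strand: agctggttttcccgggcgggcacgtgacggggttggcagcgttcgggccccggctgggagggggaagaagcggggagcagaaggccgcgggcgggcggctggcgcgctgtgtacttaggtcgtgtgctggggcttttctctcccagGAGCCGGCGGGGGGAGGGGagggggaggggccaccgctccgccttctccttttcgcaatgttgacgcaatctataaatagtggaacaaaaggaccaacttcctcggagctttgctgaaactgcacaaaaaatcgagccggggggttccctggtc
The hit scored 13.3 bits, and 26.6% (8975 of 33723) of RefSeq promoters of this length on these chromosomes held a hit of at least 11 bits on either strand. The window was 64.0% G or C and held 24 CpG dinucleotides. No CTCF peak overlapped this SMC1 peak, which had a fold enrichment of 2.83 and a -log10 q-value of 12.8.

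Members were high peaks for their distance from coding genes. Fold enrichment compares the summit with the background around it, and a larger -log10 q-value marks a more significant peak. SMC1 members had a median fold enrichment of 3.75 (95% interval of the median 3.68 to 3.85) and a median -log10 q-value of 21.3 (19.9 to 22.4), against 3.21 (3.19 to 3.23) and 11.4 (11.3 to 11.6) for the 65452 other SMC1 peaks over 5 kb from coding starts. The 15937 SMC1 peaks within 1 kb of a coding start had 3.84 (3.81 to 3.87) and 23.3 (22.8 to 23.8), the first with an interval that overlaps that of the members. CTCF members had a median fold enrichment of 5.95 (5.64 to 6.21) and a median -log10 q-value of 32.1 (27.9 to 36.1). They lay above both the 42222 other CTCF peaks over 5 kb from coding starts, with 5.00 (4.95 to 5.06) and 18.3 (17.9 to 18.8), and the 10027 CTCF peaks at coding starts, with 4.88 (4.81 to 4.96) and 20.3 (19.6 to 21.2). A -log10 q-value of 100 or more was reached by 11.7% of SMC1 members and 7.23% of all SMC1 peaks, and by 25.4% of CTCF members and 17.3% of all CTCF peaks.

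**Figure D1:**
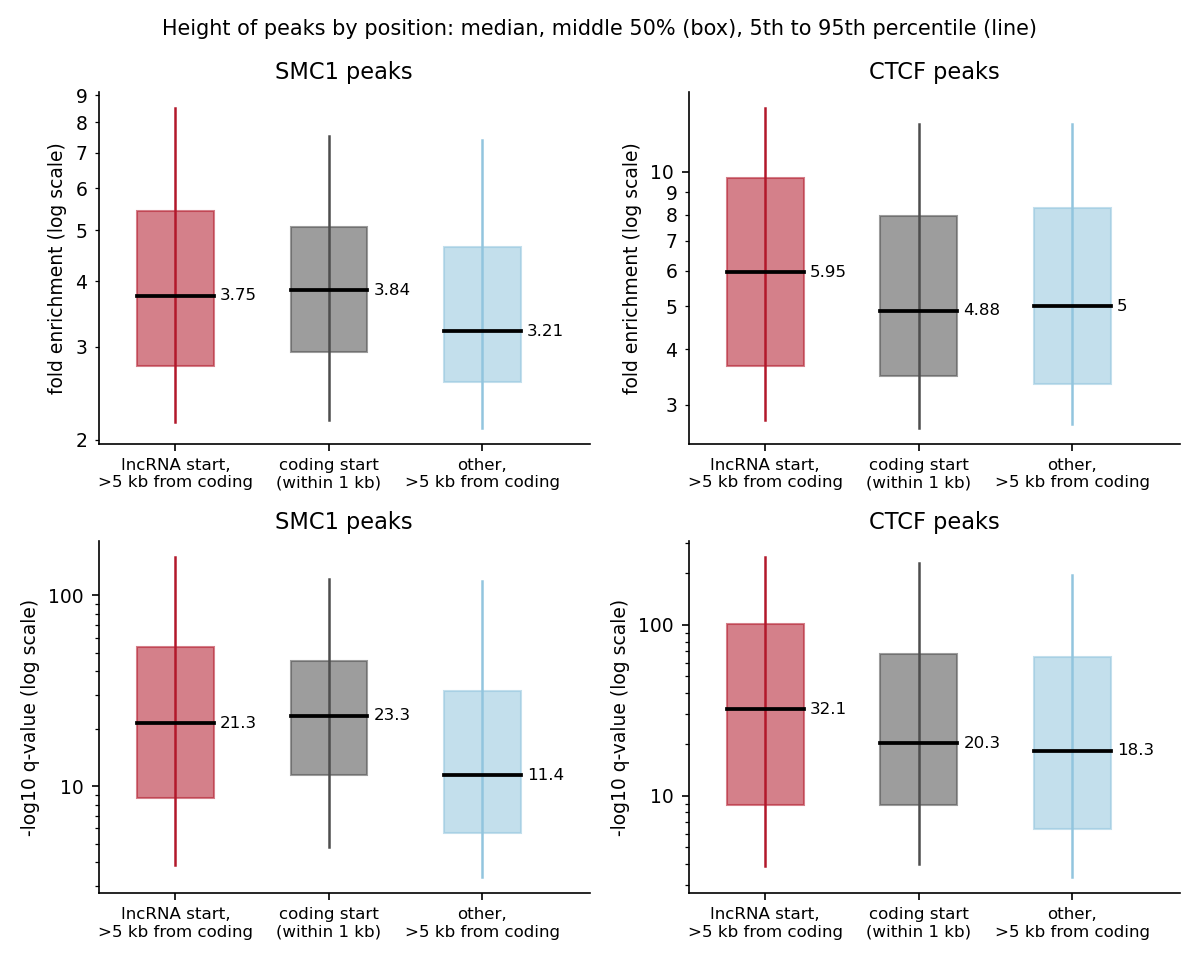
Fold enrichment (top) and -log10 q-value (bottom), both on log axes, of SMC1 and CTCF peaks at lncRNA starts over 5 kb from coding starts, at coding starts and elsewhere over 5 kb from coding starts, with the median as a line, the middle 50% as a box and the 5th to 95th percentile as a thin line. SMC1 members have a median fold enrichment of 3.75, near that of peaks at coding starts, and CTCF members have a median of 5.95, above both other groups.

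A wide peak reaches a start more easily than a narrow one, and the median width of SMC1 members was 803 bp, while that of the other SMC1 peaks far from coding starts was 619 bp. The comparison was therefore also made among peaks 500 to 1000 bp wide. The 1092 SMC1 members of this width had a median fold enrichment of 3.72 (3.63 to 3.86), against 3.38 (3.36 to 3.41) for the other distant peaks and 3.80 (3.75 to 3.84) at coding starts. The 738 CTCF members had 8.17 (7.80 to 8.54), against 7.74 (7.66 to 7.83) for the other distant peaks and 6.80 (6.61 to 6.97) at coding starts, and the first 2 of these intervals overlap.

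The summits lay around the lncRNA start without a preferred side. The median distance from summit to nearest start was 458 bp for SMC1 members and 432 bp for CTCF members, and 49.9% (48.1 to 51.6) of SMC1 summits and 48.2% (46.0 to 50.4) of CTCF summits lay downstream of the start. The start lay inside the peak in 1410 SMC1 members (44.9%) and 742 CTCF members (38.0%). These peaks were the highest members, with a median fold enrichment of 4.51 for SMC1 and 8.06 for CTCF, and median -log10 q-values of 33.7 and 62.9. Members with the start 1 to 500 bp away had 3.37 and 5.29, and members with the start farther away, just inside the limit, had 3.19 and 4.49. Distant peaks with a lncRNA start up to 500 bp beyond the limit had 3.14 and 4.66, close to the members just inside it. At the limit of 5 kb from coding starts, the 87 SMC1 members within 1 kb inside it had 3.79 and the 93 peaks within 1 kb outside it had 3.75, and for CTCF the values were 5.23 (66 members) and 6.03 (70 peaks). Peaks that held the lncRNA start were also wider, with median widths of 1041 bp for SMC1 and 732 bp for CTCF. Members with the start 1 to 500 bp away had 640 and 436 bp, and those with it farther away 597 and 407 bp. A wide peak holds a start more easily, and the part of width in these heights was not tested.

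**Figure D2:**
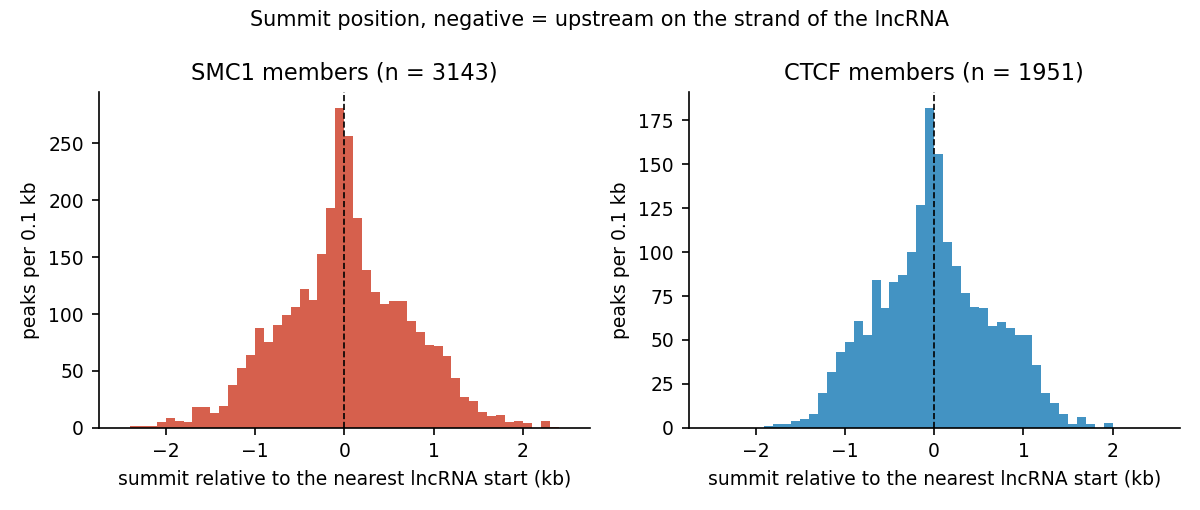
Number of member peaks per 0.1 kb (vertical axis) by the position of the summit relative to the nearest lncRNA start in kb (horizontal axis), with upstream of the lncRNA negative, for 3143 SMC1 members (left) and 1951 CTCF members (right). Both peak at the start and fall off on both sides, with 17.2% of SMC1 and 17.4% of CTCF summits within 100 bp. The rule takes peaks within 1 kb of a start, so the fall-off is in part fixed by it.

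Most members stood between coding genes. The nearest lncRNA start lay outside every coding gene for 74.1% of SMC1 members and 75% of CTCF members, inside a coding gene on the opposite strand for 18.7% and 18.8%, and inside one on the same strand for 7.22% and 6.20%. The median distance to the nearest coding start was 40 kb for SMC1 members (middle 50% 17.1 to 97.2 kb) and 36.5 kb for CTCF members (16.0 to 86.1 kb). The base composition of members was between that of the other groups. The 301 bases around the summit had a median of 49.5% G or C in SMC1 members, 57.8% at coding starts and 43.9% at the other distant peaks. A CpG-island-like window, with over 50% G or C and an observed over expected CpG ratio over 0.6, was found at 15.4% (14.2 to 16.7) of SMC1 members, 47.1% (46.3 to 47.9) of peaks at coding starts, 1.87% (1.77 to 1.97) of the other distant peaks and 10.3% of all SMC1 peaks. In CTCF members the share was 18.1% (16.5 to 19.9), against 52.1% at coding starts, 2.44% at the other distant peaks and 11.5% of all CTCF peaks.

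The CpG-island-like members sat closer to the start and were higher. Of the 484 such SMC1 members, 61.8% (57.4 to 66.0) had the summit within 250 bp of the start, against 28.9% (27.2 to 30.6) of the 2659 others. Their median fold enrichment was 4.76 (4.54 to 5.06) against 3.61 (3.53 to 3.68), and 68.0% (63.7 to 72.0) of them overlapped a CTCF peak against 50.4% (48.5 to 52.3). Their share at loop anchors of the list labelled SMC1 was 29.3% (25.5 to 33.5) against 26.9% (25.2 to 28.6), with intervals that overlap. In CTCF members the median fold enrichment was 6.41 (5.50 to 7.02) in the 354 CpG-island-like ones and 5.84 (5.55 to 6.14) in the others, again with intervals that overlap.

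Cohesin and CTCF shared many of these starts. Of the SMC1 members, 53.1% (1668, Wilson 95% interval 51.3 to 54.8) overlapped a CTCF peak, against 47.0% of all SMC1 peaks and 44.5% (44.1 to 44.8) of the other distant SMC1 peaks. Of the CTCF members, 83.5% (1629, 81.8 to 85.1) overlapped an SMC1 peak, against 75.8% of all CTCF peaks and 72.8% (72.3 to 73.2) of the other distant CTCF peaks. Among peaks 500 to 1000 bp wide the differences were smaller, with 49.7% (46.8 to 52.7) of SMC1 members against 45.8% (45.1 to 46.4) of the other distant peaks, and 95.4% (93.6 to 96.7) against 92.4% (92 to 92.8) for CTCF. These intervals cover counting error and treat peaks as independent. SMC1 members with CTCF had a median fold enrichment of 5.07 and a median width of 1074 bp, and the 1475 without CTCF had 2.90 and 546 bp. A matrix hit of at least 9 bits within 50 bp of the summit was found at 15.6% (14.3 to 16.9) of SMC1 members and 24.2% (22.3 to 26.1) of CTCF members, beside 13.2% and 20.7% of all peaks and 5.41% and 5.43% of windows 2000 bp away from the members. At this setting only 41.3% of the 3000 summits from which the matrix was learned had a hit. A summit without a hit may thus still have a motif. A wider window of 250 bp with at least 11 bits, a choice added later, is used for the rest. Such a hit was found at 53.1% (50.7 to 55.4) of SMC1 members with a CTCF peak and 12.1% (10.5 to 13.8) of those without, beside 10.9% in windows 2000 bp away from SMC1 member summits. Over all members such a hit was found at 33.8% of SMC1 summits and 52.0% of CTCF summits, beside 30.1% and 47.0% over all peaks. The hit lay on the strand of the lncRNA in 54.1% (51.1 to 57.1) of 1063 SMC1 members and 54.0% (51.0 to 57.1) of 1014 CTCF members.

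Most lncRNA genes that could carry a member had none. GENCODE held 18390 lncRNA genes on these chromosomes, of which 13761 had a start over 5 kb from coding starts. An SMC1 peak lay within 1 kb of a start of 2713 of them (19.7%), a CTCF peak of 1781 (12.9%), both of 1554 (11.3%) and neither of 10821 (78.6%). The share was larger in genes that offer more starts. It was 15.3% for SMC1 and 9.52% for CTCF in the 9235 genes with 1 start, and 40.3% and 30.2% in the 1564 genes with 5 or more. At the canonical start alone, a choice added after these values were seen, the shares were 17.2% and 10.9% of the 13237 genes whose canonical start was itself over 5 kb from coding starts.

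Host genes of small RNAs carried members often. Their introns or exons are processed into microRNAs or small nucleolar RNAs (snoRNAs), the latter being guides of ribosomal RNA modification. Of 67 microRNA host genes, 32 had an SMC1 member (47.8%, 36.3 to 59.5) and 26 a CTCF member (38.8%, 28.0 to 50.8). Of 21 SNHG genes, which host snoRNAs, 14 had an SMC1 member (66.7%, 45.4 to 82.8) and 10 a CTCF member (47.6%, 28.3 to 67.6). These genes also have many starts, with medians of 5 and 10 against 1 over all lncRNA genes. Among the genes whose canonical start was itself over 5 kb from coding starts, 26 of 65 microRNA host genes (40%, 29.0 to 52.1) and 13 of 18 SNHG genes (72.2%, 49.1 to 87.5) had an SMC1 member at that start. A CTCF member stood there in 21 (32.3%, 22.2 to 44.4) and 7 (38.9%, 20.3 to 61.4) of the same genes.

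All 28 listed B lymphocyte lncRNAs had such a start. Of them, 23 had an SMC1 member (82.1%) and 13 a CTCF member (46.4%), and FAM30A, LINC00487, LINC00861, LINC01480 and LINC02161 had neither. LINC00861 also stands in the list of T and innate lymphocytes below. The names of the lists were not checked against RNA levels, so single genes may not suit their list. All lists were chosen with earlier results of these data known. The share of all lncRNA genes, 19.7% for SMC1, is no like baseline. Median starts per gene were 5.5 in the B lymphocyte list and 12 in the widely expressed list, against 1 over all. Genes with 5 or more starts had an SMC1 member in 40.3% of cases. Of 22 widely expressed lncRNAs with such a start, from a list of 30, 20 had an SMC1 member (90.9%) and 14 a CTCF member (63.6%), and CRNDE and LINC-ROR had neither. In 19 of 27 listed lncRNAs of non-blood lineages, those with such a start, the counts were 5 (26.3%) and 8 (42.1%), although the median of 18 starts per gene was larger than in the B lymphocyte list, with 5.5. In 14 of 17 listed lncRNAs of T and innate lymphocytes they were 5 (35.7%) and 2 (14.3%), with LINC02084 as the highest, at -log10 q-values of 205 for SMC1 and 217 for CTCF. At canonical starts that lie over 5 kb from coding starts, SMC1 members were found in 15 of 24 of the B lymphocyte list (62.5%, 42.7 to 78.8), 17 of 18 of the widely expressed list (94.4%, 74.2 to 99.0), 3 of 14 of the non-blood list (21.4%, 7.57 to 47.6) and 4 of 11 of the T and innate list (36.4%, 15.2 to 64.6). CTCF members were found at these starts in 8 (33.3%), 9 (50%), 2 (14.3%) and 2 (18.2%) of the same genes, so the CTCF share of the non-blood list was 42.1% over all starts and 14.3% at the canonical start.

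**Figure D3:**
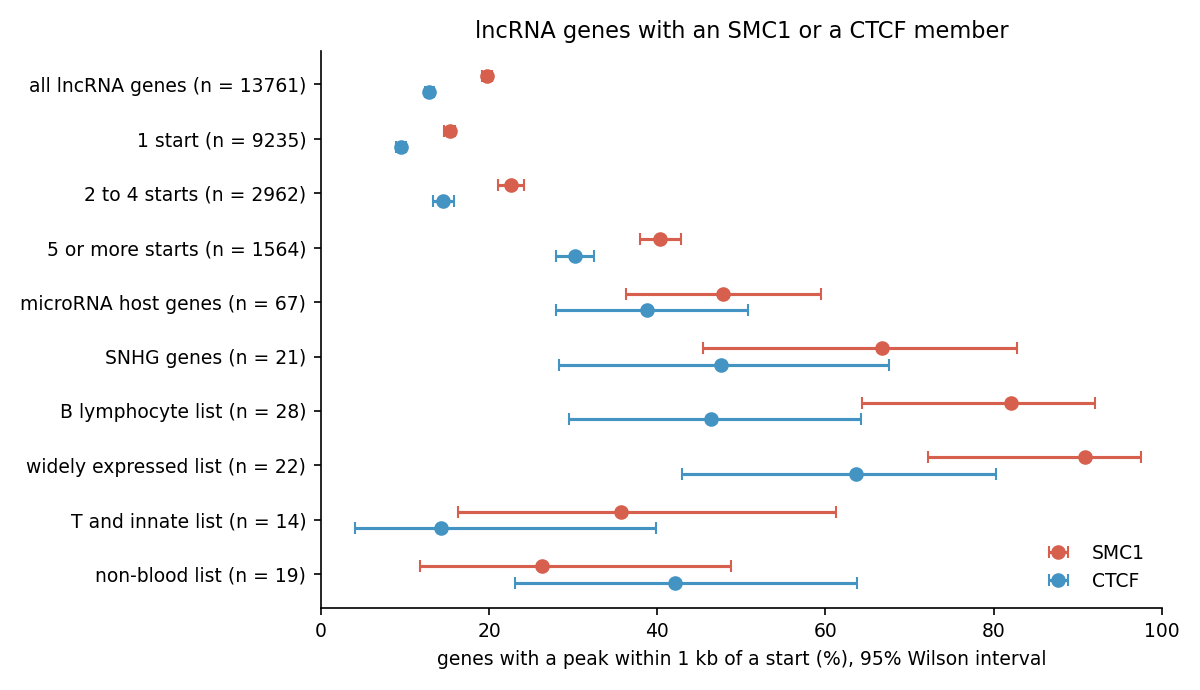
Percent of lncRNA genes with an SMC1 (red) or CTCF (blue) peak within 1 kb of a start, with 95% Wilson intervals, for all genes with a start over 5 kb from coding starts, by number of starts, for host genes of small RNAs and for 4 lists of lncRNAs. SMC1 members stand at 82.1% of the B lymphocyte list and 90.9% of the widely expressed list, beside 19.7% of all and 40.3% of genes with 5 or more starts. The lists were chosen with earlier results of these data known.

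Within the B lymphocyte list the peaks differed widely in height. LINC00926, a B cell lncRNA, had the highest -log10 q-values of the list for both targets, with a fold enrichment of 5.83 and a -log10 q-value of 170 for SMC1, and 10.9 and 243 for CTCF. LINC02362 followed for SMC1, with 6.91 and 167 at the highest of its 4 members. MIR17HG, the host of the oncogenic miR-17 family cluster, had 4 SMC1 members with a -log10 q-value of 3.64 to 41.5, and 1 CTCF member at 135 with a fold enrichment of 12.3. TCL6, beside the oncogene TCL1A, had 6 SMC1 members that did not exceed 20.3 on this scale, and CTCF members at 103 and 11.4. MIR155HG, the host of miR-155, a regulator of the germinal centre response, had SMC1 members at 35.5 and 14.3 and CTCF members at 23.9 and 7.89. LINC02397 had 34.8 for SMC1 and 5.90 for CTCF.

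Among the widely expressed lncRNAs, MIAT had the highest SMC1 -log10 q-value of the list, 204 with a fold enrichment of 6.72, and further SMC1 members at 113 and 12.7. SNHG16 reached 122 for SMC1 and 245 for CTCF, and LINC00667 119 and 29.4. EPB41L4A-AS1 had 28.7 for SMC1 and 170 for CTCF. MALAT1 and NEAT1, the abundant RNAs of nuclear speckles and paraspeckles, had SMC1 values of at most 24.8 and 19.1, beside a median of 21.3 over all SMC1 members. NORAD, a cytoplasmic RNA that binds Pumilio proteins, had 45.8 for SMC1 and 6.65 for CTCF. PVT1, which offers 132 starts downstream of MYC, had 15 SMC1 members from 3.62 to 45.3 and 6 CTCF members from 3.09 to 42.1. CYTOR and MIR4435-2HG are near copies of each other, so reads of these genes may be split between them.

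The highest members of all were at lncRNA genes with little or no annotation. ENSG00000289881 on chromosome 1 had the highest SMC1 -log10 q-value, 570, with a fold enrichment of 12.3, and 654 and 18.4 for CTCF. LINC01002 on chromosome 19 had 565 and 23.2 for SMC1 and, as the highest CTCF member, 1108 and 20.5. Neither of these peaks at LINC01002 had a loop in either loop list. ENSG00000254510 on chromosome 11 had a CTCF value of 872 with a fold enrichment of 19.1. ENSG00000259003, which lies on chromosome 14 at the T cell receptor alpha locus, whose gene segments do not count as coding genes in GENCODE, had 521 for SMC1 and 631 for CTCF. LINC02980, beside the histone genes of chromosome 6, had 636 for CTCF with its summit 1 bp downstream of the start.

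Members were loop anchors more often than other distant peaks. The loop lists hold pairs of 5 kb bins, 27785 with the label SMC1 and 79406 with the label CTCF on these chromosomes. In the study's supplement the loop numbers of both targets stand the other way round. Its shares of peaks at loop anchors are near those found here with the lists exchanged, 51.4% of all SMC1 and 28.4% of all CTCF peaks. With the lists as labelled these shares were 22.3% and 55.5%. The labels of the deposited loop lists may therefore be exchanged, and a list may hold the loops of the other target. The main shares at anchors and joined to coding promoters are therefore given from both lists. Splits of joined shares by CTCF peak, width and distance, and loop spans, come from the list with the label of the target alone. They carry the same doubt. A bin of the list labelled SMC1 was overlapped by 27.3% of SMC1 members (857, 25.7 to 28.9), against 22.3% of all SMC1 peaks, 29.6% (28.9 to 30.4) of those at coding starts and 18.9% (18.6 to 19.2) of the other distant ones. In the list labelled CTCF the same shares were 55.6%, 51.4%, 61.3% and 47.3%. Of the CTCF members, 60.6% (1182, 58.4 to 62.7) were anchors in the list labelled CTCF, against 55.5% of all CTCF peaks, 66.1% at coding starts and 51.4% (51.0 to 51.9) of the other distant ones. In the list labelled SMC1 they were 32.8%, 28.4%, 35.9% and 24.7%.

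Shares of peaks joined to coding promoters followed the same order, while shares of loops did not. A loop was said to join a member to a coding gene if the other bin lay within 1 kb of a protein-coding transcript start. Of the SMC1 members, 364 (11.6%, 10.5 to 12.7) were joined in the list labelled SMC1, against 10% of all SMC1 peaks, 16.1% (15.6 to 16.7) at coding starts and 7.64% (7.44 to 7.84) of the other distant ones. With the list labelled CTCF, 28.0% of SMC1 members were joined, against 24.5%, 35.2% and 20.7%. Of the CTCF members, 587 (30.1%, 28.1 to 32.2) were joined in the list labelled CTCF, against 26.8% of all CTCF peaks, 38.5% (37.5 to 39.4) at coding starts and 22.7% (22.3 to 23.1) of the other distant ones. With the list labelled SMC1, 14.6% were joined, against 12.9%, 20% and 9.96%. SMC1 members with a CTCF peak were joined in 16.5% (14.8 to 18.4) of cases and those without in 5.97% (4.87 to 7.29), and the same shares of the other distant SMC1 peaks were 12.1% (11.7 to 12.4) and 4.10% (3.90 to 4.30). Among peaks 500 to 1000 bp wide, 8.52% (7.0 to 10.3) of SMC1 members and 6.45% (6.14 to 6.78) of the other distant SMC1 peaks were joined, and 36.2% (32.8 to 39.7) and 29.4% (28.7 to 30.2) for CTCF.

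The difference in joined shares between all members and all other distant peaks held at most distances to the nearest coding start. At 5 to 20 kb, 17.3% (15.0 to 19.9) of SMC1 members and 11.3% (10.9 to 11.7) of the others were joined, and over 100 kb 5.87% (4.42 to 7.77) and 3.03% (2.76 to 3.34). For CTCF the shares were 36.3% (32.6 to 40.1) and 28.5% (27.7 to 29.2) at 5 to 20 kb, and 19.6% (16.1 to 23.7) and 12.0% (11.4 to 12.7) over 100 kb. At 50 to 100 kb the CTCF intervals overlapped, with 23.7% (19.6 to 28.4) and 20.8% (19.9 to 21.8). Members were also higher peaks than the others at each distance, and the part of peak height in these shares was not tested.

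**Figure D4:**
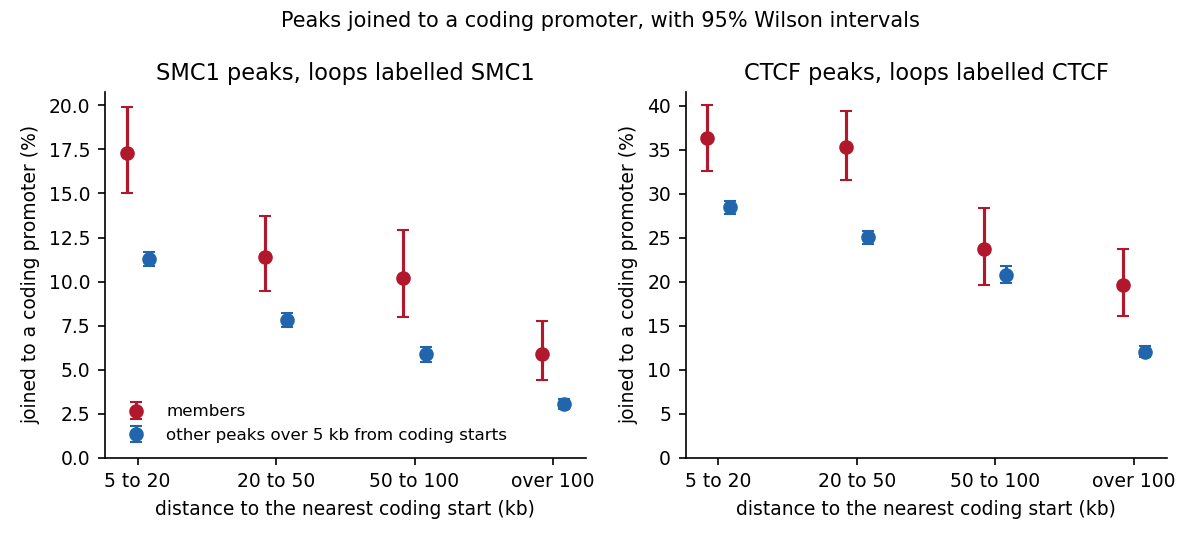
Percent of peaks joined to a coding promoter by a loop of the list with the same label (vertical axis), by distance to the nearest coding start in kb (horizontal axis), for members (red) and other peaks over 5 kb from coding starts (blue), with 95% Wilson intervals. The share of SMC1 members falls from 17.3% at 5 to 20 kb to 5.87% over 100 kb and lies above the others at each distance, and in CTCF the intervals overlap at 50 to 100 kb. The labels of the loop lists may be exchanged.

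Most joined members had no loop to the gene with the nearest coding start. The SMC1 members had 581 loops to coding promoters in the list labelled SMC1, with 456 coding genes, which is 2.43% of 18773, and a median span of 120 kb. The CTCF members had 1069 loops in the list labelled CTCF, with 770 coding genes, which is 4.10%, and a median span of 125 kb. Most joined members reached 1 gene, 244 of 364 for SMC1 and 382 of 587 for CTCF. The gene with the nearest coding start was among the partners of 30.5% (26.0 to 35.4) of joined SMC1 members and 33.6% (29.9 to 37.5) of joined CTCF members. With the lists exchanged these shares were 38.6% (35.5 to 41.9) and 28.5% (23.6 to 34.0). The same share was not computed for other peaks, so it cannot be called particular to members. Of the 581 loops of SMC1 members, 408 (70.2%) were also in the list labelled CTCF, where they made up 27.8% of 1470. Median observed over expected read pairs were 3.81 (3.64 to 4.09) and 3.95 (3.75 to 4.12), beside 3.83 and 3.90 for loops of the other distant peaks to coding promoters.

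The loops left members on the side to which the CTCF hit pointed. Among the SMC1 members with a hit and more loops on 1 side than on the other in the list labelled SMC1, 79.0% (305 of 386, 74.7 to 82.8) had most loops on the side the hit faced, beside 78.5% over all SMC1 peaks. For CTCF members in the list labelled CTCF it was 83.5% (533 of 638, 80.5 to 86.2), beside 81.1% over all CTCF peaks. For loops to coding promoters alone it was 72.7% (65.8 to 78.6) of SMC1 and 79.8% (75.1 to 83.8) of CTCF members, beside 76.6% and 79.3% over all peaks. Each of these 4 intervals holds the share over all peaks. With the lists exchanged, the shares for all loops were 81.7% (78.6 to 84.4) of SMC1 and 79.9% (75.5 to 83.7) of CTCF members. Over all peaks they were 79.3% and 78.8%.

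Among loops to coding promoters, taken for each target from the list with its own label, the loop with the most read pairs joined LINC02574 to AHDC1, an AT-hook DNA-binding protein gene, over 55 kb. It held 228 read pairs where 51.7 were expected in the list labelled SMC1, while the list labelled CTCF gave 743 against 88.6. ENSG00000288718 was joined to LTF, which encodes lactoferrin, over 70 kb with 195 and 348 read pairs. LINC00910 was joined to the RNA helicase gene DHX8 over 95 kb with 161 in the list labelled SMC1. In the list labelled CTCF, MIR194-2HG was joined to CDC42BPG with 518 read pairs, and MIR200CHG to C12orf57 and PTPN6 with 323 over 15 kb. PTPN6 encodes SHP-1, a phosphatase that restrains B cell receptor signals. ENSG00000267212, joined to HOOK2 over 10 kb with 176 read pairs, stood at a low SMC1 member, with a fold enrichment of 2.10 and no CTCF peak.

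Some members reached many genes. The highest SMC1 member, at ENSG00000289881, had 31 loops with the label SMC1 and 27 with the label CTCF. Of these, 29 and 24 ran to the side that its hit faced, with the most read pairs 183 kb away in the list labelled SMC1 (86) and 178 kb away in the list labelled CTCF (137), both at bins with no coding start. The coding partners were CTBS, GNG5, RPF1, SPATA1 and PRKACB in both lists, and SAMD13 in the list labelled SMC1 only. PRKACB encodes a catalytic subunit of protein kinase A and GNG5 a G protein gamma subunit.

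**Figure D5:**
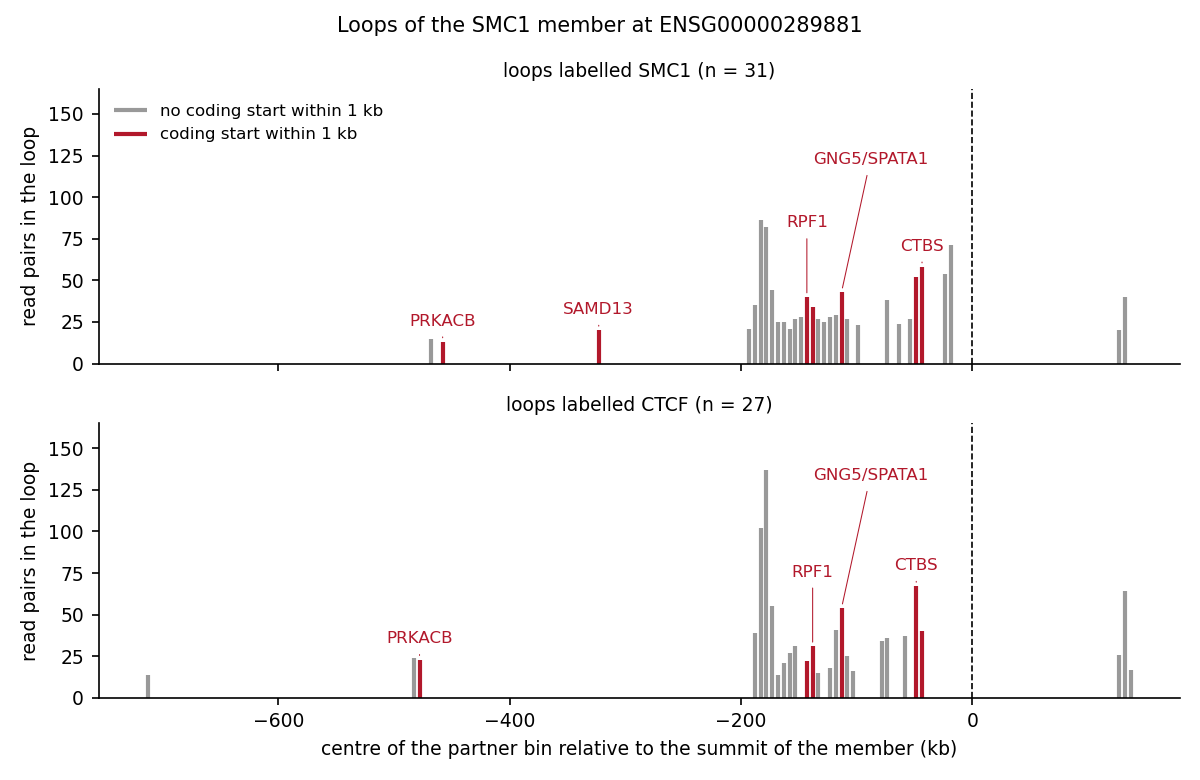
Read pairs (vertical axis) of each loop of the SMC1 member at ENSG00000289881 by the position of the partner bin relative to its summit in kb (horizontal axis), in the list labelled SMC1 (top, 31 loops) and the list labelled CTCF (bottom, 27 loops), with bins within 1 kb of a coding start in red. The tallest lines stand 183 kb and 178 kb from the member at bins with no coding start, and 2 and 3 loops run to the right.

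ENSG00000254510 and LINC01144 were joined to 9 coding genes each in the list labelled SMC1. The first carried a high and a low SMC1 member in the same bin, so both share these loops, whose partners include CTSF, which encodes the lysosomal protease cathepsin F. LINC01144 was also joined to 9 genes in the list labelled CTCF, among them UROD of haem synthesis, MMACHC of vitamin B12 metabolism and MUTYH of DNA repair. LNCRNA-IUR had the same 6 partners in both lists, CEP57, CWC15, ENDOD1, FAM76B, KDM4D and SRSF8. DIAPH1-AS1 was joined to 15 genes in the list labelled CTCF, of which all but TAF7 are gamma protocadherin genes, a tandem array that encodes adhesion proteins. In the list labelled SMC1 it was joined to PCDHGA11 and PCDHGB7. MIAT had 35 loops with the label SMC1 and 44 with the label CTCF from its highest SMC1 member, with HPS4, SRRD, TFIP11 and TPST2 as partners in both.

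Of 50 coding genes of B cells, listed with earlier results known, 5 were joined to an SMC1 member in the list labelled SMC1 (10%, 4.35 to 21.4), which were BCL2, BCL2L1, ETS1, MCL1 and TNFAIP3, beside 2.43% of all coding genes. In the list labelled CTCF 11 were joined to SMC1 members (22%, 12.8 to 35.2), beside 5.31% of all coding genes. CTCF members were joined to 6 in the list labelled CTCF (12.0%, 5.62 to 23.8), which were BCL2L1, CXCR4, ETS1, IKZF1, IRF8 and TNFAIP3, beside 4.10% of all coding genes. In the list labelled SMC1, CTCF members were joined to 3 (6.0%, 2.06 to 16.2), beside 2.19%, which lies within that interval. LINC02865 was joined to TNFAIP3, which encodes the NF-κB inhibitor A20, over 75 kb with 50 and 228 read pairs in the lists labelled SMC1 and CTCF. ENSG00000289398, a high SMC1 member with a fold enrichment of 10.5, was joined to ETS1, a transcription factor gene of lymphocytes, over 215 kb with 17 read pairs in the list labelled SMC1. BCL2L1-AS1 was joined to BCL2L1 over 35 kb with 41 and 107, ENSG00000283125 to BCL2, and ADAMTSL4-AS1 to MCL1 over 15 kb with 44 and 162. All 3 partners encode inhibitors of apoptosis. LINC02132 was joined to IRF8, a transcription factor gene of B cell fate, over 35 kb with 100 read pairs in the list labelled CTCF alone. ENSG00000255428 was joined there to POU2AF1, the B cell coactivator OCA-B, over 40 kb with 229, from an SMC1 member with no CTCF peak.

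Of the B lymphocyte lncRNAs, LINC00926 was joined to TCF12, an E protein transcription factor gene, in both lists. Its highest SMC1 member had 22 loops with the label SMC1 and 16 with the label CTCF. The nearest of the coding transcript starts of TCF12, which need not be its main promoter, lay 24.0 kb from that peak. LINC01619 and LINC02397 were joined to BTG1, an antiproliferative gene often mutated in B cell lymphoma, in the list labelled CTCF alone. LINC02362 was joined there to IRF2. Each member at MIR155HG had 1 loop with the label SMC1 and 9 with the label CTCF, none of which reached a coding promoter.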

How the data were processed

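HG00731 cells were measured by HiChIP for SMC1 (FA-EGS) and CTCF in 2 biological replicates each. The authors pooled the replicates, aligned reads to hg38 with BWA-MEM and called peaks with MACS3 3.0.1 against the local background, and loops with MAPS in 5 kb bins. The fold enrichment ratio and -log10 q-value per peak, the count of read pairs of each loop, and the score that gives the expected read pairs were used as the authors deposited them. The p-value columns and the loop false discovery rates that the authors deposited were not used further. Read depth is not analysed here. The loop counts on chromosomes 1 to 22 are raw, and each loop holds at least 12 read pairs.

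Starts came from GENCODE release 44. Distances ran from the nearest base of the peak, and overlaps needed 1 bp. Coding starts were those of protein-coding transcripts of protein-coding genes. Shares have Wilson 95% intervals and medians have rank-based 95% intervals, both for counting error alone. No test was made, since each target has 1 pooled list. The motif search was tested on simulated data, and its matrix was learned without summits of chromosome 8. Peak threshold, distances, loop lists, anchors and motif settings were varied. The wide motif window of 250 bp with 11 bits and the canonical starts were chosen after the data were seen. Members and gene lists were chosen with earlier results of these data known.

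For each target the text names, from the pooled lists, the 5 members with the highest -log10 q-value, the 5 joined to the most coding genes, the 5 loops to coding promoters with the most read pairs, members at listed lncRNAs, and members joined to coding genes of B cells, although not each of them is printed. Some of these loops and sequences are not reported here. A peak is named by the lncRNA with the nearest start. Python 3.11.15, NumPy 2.4.6, pandas 2.3.3, SciPy 1.17.1, pysam 0.24.0 and Matplotlib 3.10.9 were used.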

Additional observations from a re-analysis of the deposited data

How the results depend on the processing

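The numbers of members stayed within 1.5 times under all 6 alternatives of the rule and the peak threshold, with 2232 to 2885 SMC1 and 1415 to 1777 CTCF members. The peak and loop lists hold no read totals, and the study's supplement gives a larger pooled read number for SMC1 than for CTCF, and the part of depth in differences between the targets was not tested. A start without a peak may lie under the threshold. Of 134 values under alternatives, 83 stayed within the interval, or for a number of members within 1.5 times, of the value reported, and 51 did not.

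With the minimum -log10 q-value raised to 5 and to 10, the share of SMC1 members that overlapped a CTCF peak was 58.2% and 68.2%, and the share of CTCF members that overlapped an SMC1 peak was 87.2% and 92.5%. The shares at anchors were 29.4% and 33.3% of SMC1 members and 63.0% and 67.6% of CTCF members. The shares joined to a coding promoter at a minimum of 10 were 14.6% and 34.1%. With lncRNA starts at most 500 bp away, 55.8% of SMC1 and 85.9% of CTCF members overlapped the other target, and with the summit of the member inside the CTCF peak 49.5% of SMC1 members did. With coding starts over 10 kb away, 25.4% of SMC1 members were anchors and 10.3% were joined. With the loop lists exchanged, 55.6% of SMC1 and 32.8% of CTCF members were anchors, and 28.0% and 14.6% were joined. With loops at or above the median read pairs of their list, 17.1% and 45.6% were anchors, and 7.03% and 21.8% were joined. With the coding start inside the bin, 27.9% of CTCF members were joined. The exchange, the larger counts and the higher thresholds change which loops or peaks are counted, and no other cause was tested. The other values that moved were medians of height and span, the motif shares, from 10.3% to 33.8% in SMC1 and 17% to 52.0% in CTCF members across minimum and window, and the shares of lncRNA genes at the canonical start.

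No paired analysis was possible because both replicates of each target are pooled in the lists.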
